A study of Homo sapiens with 6 samples.

Results

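The miR-15/16 family is a group of microRNAs whose 5p arms start with almost the same bases. It was followed here in K562 cells with and without over-expression of RUNX1. The 8 mature arms were chosen by name: both arms of miR-15a and of miR-15b, miR-16-5p, miR-16-1-3p, miR-16-2-3p and miR-195-5p. All 8 were listed in each sample, among 2596 microRNA entries and 28846 small RNA entries in all, and together they held 98468 counts over the 6 samples. K562 is a human leukemia line with red cell and platelet precursor traits, and RUNX1 is a transcription factor of hematopoiesis. The question was which small RNAs change upon RUNX1 over-expression in such cells. The 3 control samples carried the empty lentiviral vector SIEW, which expresses GFP, and the 3 RUNX1 samples carried the same vector with human RUNX1 and GFP. All were K562 cells kept 10 days in culture before harvest, and each library was made from 1000 ng of total RNA of a separate transduction. RUNX1 itself is not measured in small RNA libraries.

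Mature microRNAs are cut from a hairpin whose 5p and 3p arms form a duplex, of which usually 1 strand is kept. The seed, bases 2 to 8 from the 5′ end, pairs with target messages, and the 5p arms of this family are known for repressing cell cycle and survival genes such as CCND1, CCNE1 and BCL2. The chromosome 13 cluster is often lost in chronic lymphocytic leukemia.

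The arms are printed below with the seed in capitals, because the shared seed defines the 5p arms and the 3p arms tell the loci apart. Sequences are from RefSeq (GRCh38.p14), and all 8 names matched. The prefix hsa-, for human, is left out further on.
hsa-miR-15a-5p: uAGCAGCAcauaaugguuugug
hsa-miR-15b-5p: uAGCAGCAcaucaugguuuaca
hsa-miR-16-5p: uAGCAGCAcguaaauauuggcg
hsa-miR-195-5p: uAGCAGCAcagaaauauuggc
hsa-miR-15a-3p: cAGGCCAUauugugcugccuca
hsa-miR-15b-3p: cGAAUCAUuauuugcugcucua
hsa-miR-16-1-3p: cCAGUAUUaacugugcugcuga
hsa-miR-16-2-3p: cCAAUAUUacugugcugcuuua

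The 4 5p arms shared the seed AGCAGCA, and the 4 3p arms each had a seed of their own, of which that of miR-16-2-3p, CAAUAUU, is also the seed of miR-195-3p. miR-15a-5p and miR-15b-5p were identical at 18 of 22 positions counted from the 5′ end, and miR-16-5p and miR-195-5p at 19 of 21. The hairpins are printed next, 5′ to 3′ on the strand of the microRNA, with the mature arms in capitals, because they show that miR-16-5p is the same molecule from both of its loci.
MIR15A: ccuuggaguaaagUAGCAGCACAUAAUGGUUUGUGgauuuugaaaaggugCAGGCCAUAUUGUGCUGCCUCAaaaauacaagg
MIR16-1: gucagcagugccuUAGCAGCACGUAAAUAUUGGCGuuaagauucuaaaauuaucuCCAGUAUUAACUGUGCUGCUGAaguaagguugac
MIR15B: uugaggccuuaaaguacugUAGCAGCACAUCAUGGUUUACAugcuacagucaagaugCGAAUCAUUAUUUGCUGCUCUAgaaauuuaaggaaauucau
MIR16-2: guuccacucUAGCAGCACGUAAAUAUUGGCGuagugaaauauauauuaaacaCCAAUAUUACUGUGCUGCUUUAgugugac
MIR195: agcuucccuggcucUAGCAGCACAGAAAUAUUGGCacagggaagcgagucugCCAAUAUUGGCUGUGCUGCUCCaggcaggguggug

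MIR15A (chr13:50049119-50049201) and MIR16-1 (chr13:50048973-50049061) lay on the minus strand with 57 bases between them, in introns of all 6 transcripts of the non-coding gene DLEU2 that span them. MIR15B (chr3:160404588-160404685) and MIR16-2 (chr3:160404745-160404825) lay on the plus strand with 59 bases between them, in introns of all 13 spanning transcripts of SMC4, a subunit of the condensin complex. MIR195 (chr17:7017615-7017701, minus strand) lay within MIR497HG, in an exon of 1 of the 2 spanning transcripts, as annotated by GENCODE 29. Around the 22 bases of miR-16-5p, the MIR16-1 and MIR16-2 hairpins were identical over a run of 23 bases. A read of miR-16-5p therefore cannot be given to 1 of the loci, whereas the 3p arms can.

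The depth differed between libraries, with total counts of 1618248, 6152921 and 6193319 in control replicates 1, 2 and 3 and of 15245007, 8506758 and 7918551 in RUNX1 replicates 1, 2 and 3. RUNX1 replicate 3 stood apart, where the chi-square of the counts per degree of freedom was 545 and 372 against the other RUNX1 samples, while all other pairs of replicates had 11.2 to 67.4. miR-10a-5p, which had the highest mean share of microRNA counts over the 6 samples, took 7.74% ± 0.753 of microRNA counts with the empty vector and 30.2% ± 2.46 with RUNX1 (n = 3 per condition, SD). Of the microRNA markers of erythroid cells, 3 of 5 were down-regulated and 1 was up-regulated, against 22.6% and 33.4% of all microRNAs tested. Their summed CPM was 4478 to 5108 with the empty vector and 2386 to 3785 with RUNX1. The summed CPM of 14 markers of other cell types was 109 to 122 with the empty vector and 2111 to 2319 with RUNX1. Of these 14, 6 had enough counts to be tested, and all 6 were up-regulated. The 4 mesenchymal markers, of which 2 were tested, made up 70.9 to 75.3 and 1952 to 2158 of the sums. miR-206 and miR-124-3p were at 0 throughout, and miR-133a-3p and miR-199a-3p were at 0 in control samples. The part of these shifts in the results on the family was not tested. The names of the control and RUNX1 libraries carry different letters, and if the letters stand for preparation rounds, these cannot be told apart from the condition.

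Upon RUNX1 over-expression, miR-15a-5p was up-regulated, its chromosome 3 counterpart miR-15b-5p was not, and the 3p arms miR-15b-3p and miR-16-2-3p of the chromosome 3 cluster were down-regulated. Of the 8 arms, 3 were thus altered. Among all 598 microRNAs tested the share was 56.0%, 33.4% up-regulated and 22.6% down-regulated, and among all 947 small RNAs tested 57.6%, with 28.0% up-regulated and 29.6% down-regulated, so 3 of 8 is no excess. The CPM values of the conditions did not overlap for these 3 arms, against 61.7% of the microRNAs and 64.8% of the small RNAs tested. The test was the quasi-likelihood test of edgeR, fitted on all small RNAs, and a call needed a P-value under 0.05 together with a log2 change of 0.5 or more in either direction. Values are given as counts and as CPM, edgeR's depth-adjusted value after TMM scaling, which assumes that most small RNAs do not change. All 8 arms passed the filter on low counts.

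miR-15a-5p, the abundant arm of MIR15A, had 971, 3866 and 3667 counts with the empty vector and 13742, 6707 and 5179 with RUNX1, or 464, 480 and 483 CPM and 1192, 1073 and 756 CPM. Every RUNX1 sample lay above every control sample, with RUNX1 replicate 3 the lowest of the RUNX1 samples. Its mean rose from 476 ± 9.92 to 1007 ± 225 CPM (n = 3 per condition, SD), a log2 fold change of 1.08 (SE 0.17, edgeR quasi-likelihood test with Benjamini-Hochberg adjustment, adjusted p = 0.000604), or 2.12-fold. Without RUNX1 replicate 3 it was 1.34. In these bulk samples a different number of expressing cells and a different amount of RNA per cell cannot be told apart, here and for all arms.

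miR-15a-3p, the rare arm of the same hairpin, did not pass the test. It had 5, 12 and 21 counts with the empty vector and 11, 10 and 11 with RUNX1, in spite of the larger RUNX1 libraries. Its log2 fold change was -0.69 with a 95% confidence interval from -1.55 to 0.17 (adjusted p = 0.145, edgeR), so a change was not detectable at this depth. It was -0.36 without control replicate 3 and -0.40 without RUNX1 replicate 1, and leaving out control replicate 2 gave a call, with -0.99.

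miR-15b-5p, which differs from miR-15a-5p outside the seed, was the most abundant arm of the family in control samples. It had 1086, 1033 and 1109 CPM with the empty vector and 1281, 1079 and 784 CPM with RUNX1. The samples overlapped, as RUNX1 replicate 1 was the highest and RUNX1 replicate 3 the lowest of all 6. The log2 fold change was -0.038 (95% confidence interval -0.44 to 0.36, adjusted p = 0.869, edgeR), and without RUNX1 replicate 3 it was 0.22.

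miR-15b-3p, the other arm of that hairpin, had 573, 1846 and 1993 counts with the empty vector and 838, 634 and 691 with RUNX1, or 274, 229 and 262 CPM and 72.7, 101 and 101 CPM. All RUNX1 samples lay below all control samples. The mean fell from 255 ± 23.3 to 91.7 ± 16.4 CPM (n = 3 per condition, SD), a log2 fold change of -1.48 (SE 0.17, adjusted p = 7.36e-05, edgeR), or 2.79-fold lower. With TMM scaling it was the largest change in the family, and 8.19% of the microRNAs tested had a lower log2 fold change.

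miR-16-2-3p, the arm that marks the chromosome 3 copy of miR-16, had 808, 2595 and 2357 counts with the empty vector and 1975, 1195 and 1457 with RUNX1, or 386, 322 and 310 CPM and 171, 191 and 213 CPM. The conditions did not overlap. The mean fell from 339.6 ± 40.9 to 192 ± 20.7 CPM (n = 3 per condition, SD), a log2 fold change of -0.82 (SE 0.15, adjusted p = 0.0011, edgeR), or 1.77-fold lower. Without RUNX1 replicate 3, miR-15b-3p had -1.47 and miR-16-2-3p -0.82.

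miR-16-1-3p, the arm that marks the chromosome 13 copy, was rare, with 14, 35 and 43 counts with the empty vector and 42, 26 and 40 with RUNX1. Its log2 fold change of -0.25 (95% confidence interval -0.87 to 0.37, adjusted p = 0.46, edgeR) did not pass the test, and the samples overlapped in CPM. It was -0.43 without control replicate 2 and -0.062 without RUNX1 replicate 1, and was called in neither. All 4 3p arms had values below 0, of which miR-15b-3p and miR-16-2-3p passed the test.

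miR-195-5p, from the chromosome 17 locus, had 58, 140 and 173 counts with the empty vector and 308, 110 and 105 with RUNX1. On the CPM scale the samples overlapped, at 27.7, 17.4 and 22.8 CPM with the empty vector and 26.7, 17.6 and 15.3 CPM with RUNX1. Its log2 fold change was -0.14 (95% confidence interval -0.71 to 0.44, adjusted p = 0.666, edgeR). Without RUNX1 replicate 3, the arms that were not called had 0.22 (miR-15b-5p), 0.17 (miR-16-5p), 0.16 (miR-195-5p), -0.36 (miR-16-1-3p) and -0.75 (miR-15a-3p), and none was called.

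**Figure D1:**
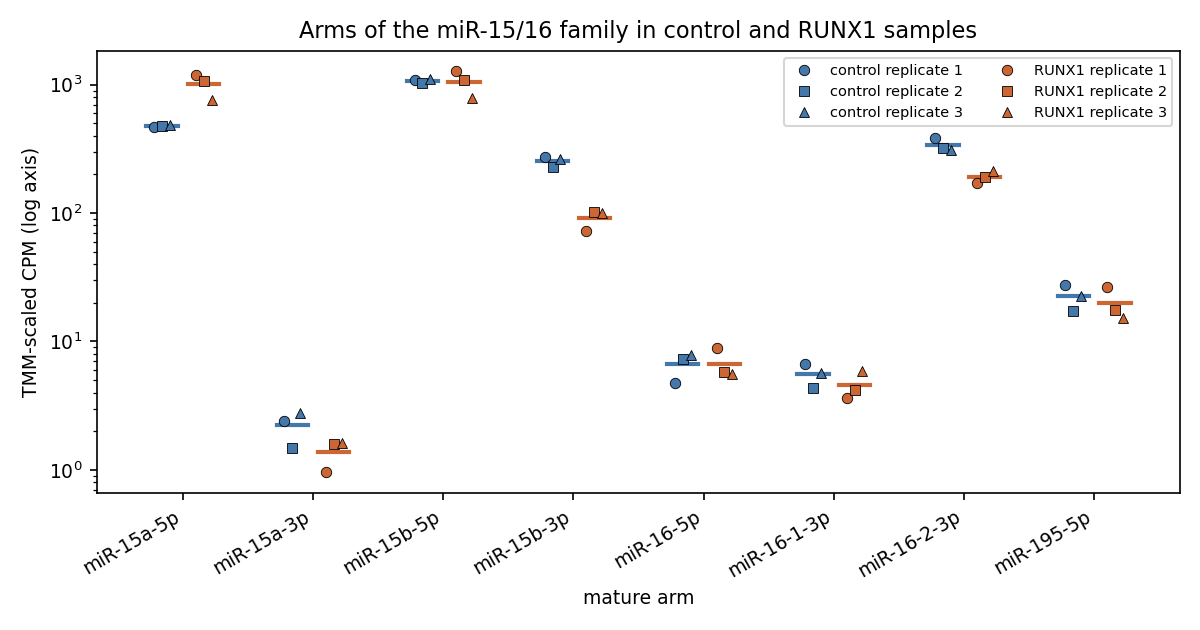
TMM-scaled CPM (log axis) of the 8 mature arms in each sample, with control in blue and RUNX1 in orange, marker shapes for the replicates and short lines for the means. The 3 RUNX1 samples of miR-15a-5p sit at 756 to 1192 CPM, above the control samples at 464 to 483 CPM, and those of miR-15b-3p and miR-16-2-3p sit below their controls, while the other 5 arms overlap.

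miR-16-5p, in many cells one of the most abundant microRNAs and often used as a reference in q-RT-PCR, was listed with only 10, 59 and 60 counts with the empty vector and 102, 36 and 38 with RUNX1. These 305 counts compare with 10387 on miR-16-2-3p and 200 on miR-16-1-3p. The samples overlapped in CPM, and the log2 fold change was -0.035 (95% confidence interval -0.64 to 0.57, adjusted p = 0.918, edgeR). The way reads matching several loci were counted is not given in the sources used here. Of the arms that RefSeq lists at 2 or more loci, 43 of 136 had any count, against 1325 of 2126 arms listed at 1 locus, and 314 further entries had no name match. Among 29 pairs of an arm shared between loci and the single-locus arm of the same hairpin, with at least 60 counts, the shared arm had fewer counts in 14. The pairs include those of miR-16-5p itself. No such share was computed for hairpins with both arms at 1 locus, so 14 of 29 cannot show a loss on shared arms. Examples were miR-181a-5p, with 6 counts against 2805 on miR-181a-2-3p, and miR-24-3p, with 20 against 2391 on miR-24-2-5p. The opposite also occurred, as miR-92a-3p had 982584 counts against 18275 on miR-92a-1-5p. As the treatment of reads matching several loci is not given, the count of miR-16-5p is not read here as the level of miR-16 in the cells. The part of read assignment in it was not tested.

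The scaling between libraries decided the call of most arms. The TMM factors were 1.23 to 1.31 with the empty vector and 0.735 to 0.866 with RUNX1. With library size alone, the median log2 fold change of all microRNAs tested moved from 0.11 to -0.59 and that of the 8 arms from -0.19 to -0.89. miR-15a-5p then had 0.36, under the fold-change threshold, and the other 7 arms were called down-regulated. With TMM on the microRNAs alone, miR-15a-5p had 0.89 and was called, and miR-15a-3p joined the 2 down-regulated arms with -0.88. A change of scaling shifts all microRNAs nearly alike, so the distance of an arm from the median microRNA is nearly fixed by construction and is given only as a description. miR-15a-5p was 0.98 above it with TMM, 0.96 with library size and 0.97 with TMM on the microRNAs. Under each of the 3 scalings miR-15b-3p stood at -1.58 and miR-16-2-3p at -0.93 relative to that median.

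**Figure D2:**
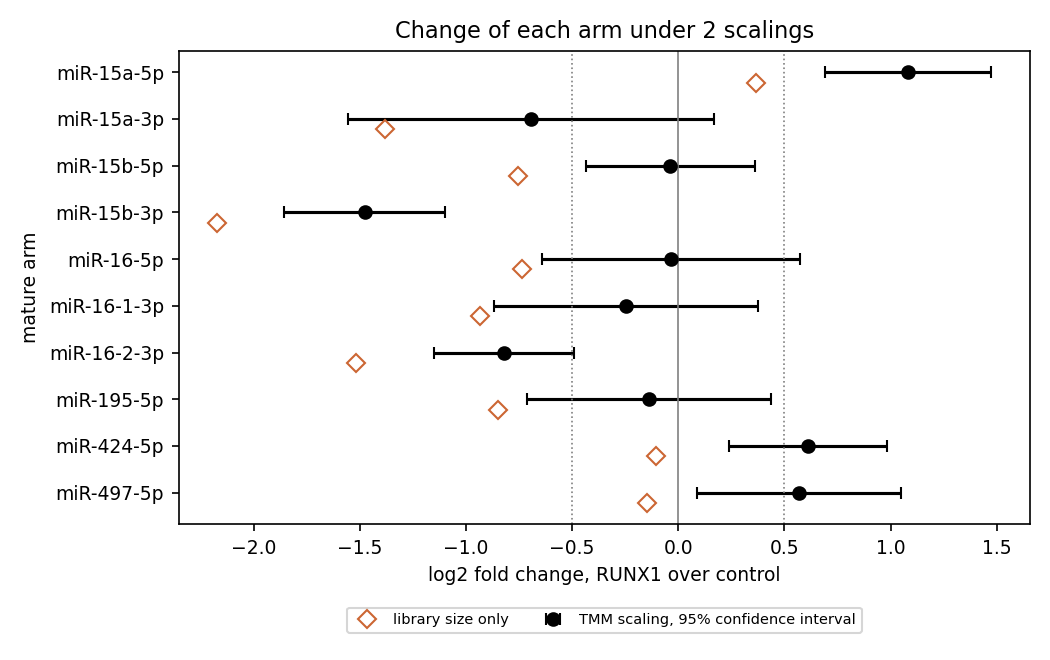
Log2 fold change (RUNX1 over control) of the 8 arms and of miR-424-5p and miR-497-5p with TMM scaling (black points, bars are 95% confidence intervals) and with library size alone (open diamonds), with dotted lines at 0.5 and -0.5. Every diamond lies to the left of its point, and miR-15a-5p is the only one of the 10 arms above 0 under both scalings.

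Ratios within a library do not depend on this scaling. The first set compared the loci, as the paralogous hairpins give arms of the same kind. The counts of miR-15a-5p per count of miR-15b-5p were 0.428, 0.464 and 0.435 with the empty vector and 0.931, 0.994 and 0.964 with RUNX1. The samples of each condition lay close together and far from those of the other, so that the 5p arm of the chromosome 13 hairpin was counted nearly as often as that of the chromosome 3 hairpin in RUNX1 samples. The mean log2 ratio was -1.18 ± 0.062 with the empty vector and -0.055 ± 0.048 with RUNX1 (n = 3 per condition, SD), a difference of 1.12 (two-sided exact permutation test, p = 0.1, below which 3 samples against 3 cannot go, and 0.125 adjusted over the 5 ratios compared). It stayed between 1.10 and 1.16 when each replicate was left out.

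The 3p arms gave the same order. The ratio of miR-16-1-3p to miR-16-2-3p was 0.0179, 0.0137 and 0.0185 with the empty vector and 0.0215, 0.0222 and 0.0278 with RUNX1, which did not overlap. Its log2 difference was 0.52, and that of miR-15a-3p to miR-15b-3p was 0.81, again with no overlap (exact permutation test, p = 0.1 for each, the smallest possible, 0.125 adjusted). Without RUNX1 replicate 3 the differences were 0.40 and 0.76. These rest on 5 to 43 counts a sample for the chromosome 13 arms. Against miR-16-5p, whose count is doubtful, miR-15a-5p had a log2 difference of 1.06 (exact permutation test, p = 0.1, 0.125 adjusted) and miR-15b-5p of -0.060 (p = 0.9). Of the counts on arms that mark chromosome 13 or chromosome 3, those of chromosome 13 made up 22.5% ± 1.07 with the empty vector and 43.0% ± 1.72 with RUNX1 (n = 3 per condition, SD, exact permutation test, p = 0.1), nearly all of them from miR-15a-5p.

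The second set compared the arms of a hairpin. The kit ligates and amplifies different sequences with different efficiency, so only the change of a ratio between conditions was read. Over 155 arm pairs with a mean of at least 10 counts on each arm, 45.2% of the 5p to 3p ratios changed by limma with an adjusted p under 0.05, 24.5% upwards and 20.6% downwards, with a median log2 difference of 0.037. In the family 2 of 5 pairs changed, those of miR-15a and of miR-15b, both towards the 5p arm, and of the other 3 pairs 2 share the arm miR-16-5p.

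For miR-15b, the counts of the 5p arm per count of the 3p arm were 3.96, 4.51 and 4.23 with the empty vector and 17.6, 10.6 and 7.77 with RUNX1. All RUNX1 samples lay above all control samples, with replicate 3 nearest to them. The log2 ratio rose by 1.42 (SE 0.27, adjusted p = 0.00231, limma), or 2.68-fold, and by 1.70 without RUNX1 replicate 3. With TMM scaling the 3p arm of this hairpin fell while the 5p arm did not pass the test. With library size alone both arms were called down-regulated, with log2 fold changes of -2.17 (3p) and -0.75 (5p).

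For miR-15a, the ratio was 177, 309 and 171 with the empty vector and 1195, 639 and 450 with RUNX1, again without overlap. The log2 ratio rose by 1.74 (SE 0.37, adjusted p = 0.00445, limma), or 3.33-fold, and by 2.05 without RUNX1 replicate 3. With TMM scaling the 5p arm of this hairpin rose, while the 3p arm did not pass the test. With library size alone the 5p arm had 0.36 and was not called, and the 3p arm was called down-regulated with -1.38. The 3p arm had at most 21 counts in a sample. Without control replicate 3, the mean count of miR-15a-3p fell under the minimum and the pair could not be tested. Of all 155 pairs, 94.2% had a smaller or more negative change than miR-15a and 89.7% than miR-15b.

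The ratio of miR-16-5p to miR-16-2-3p did not overlap between the conditions, but its difference of 0.82 on the log2 scale missed the threshold (adjusted p = 0.0694, limma). Without RUNX1 replicate 3 it was 1.01 and passed (adjusted p = 0.000318, limma). miR-16-5p to miR-16-1-3p had a difference of 0.30 (adjusted p = 0.62, limma) and miR-195-5p to miR-195-3p of 0.12 (adjusted p = 0.908, limma), both with overlapping samples. The 95% confidence interval for miR-195 was wide, from -1.12 to 1.36.

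**Figure D3:**
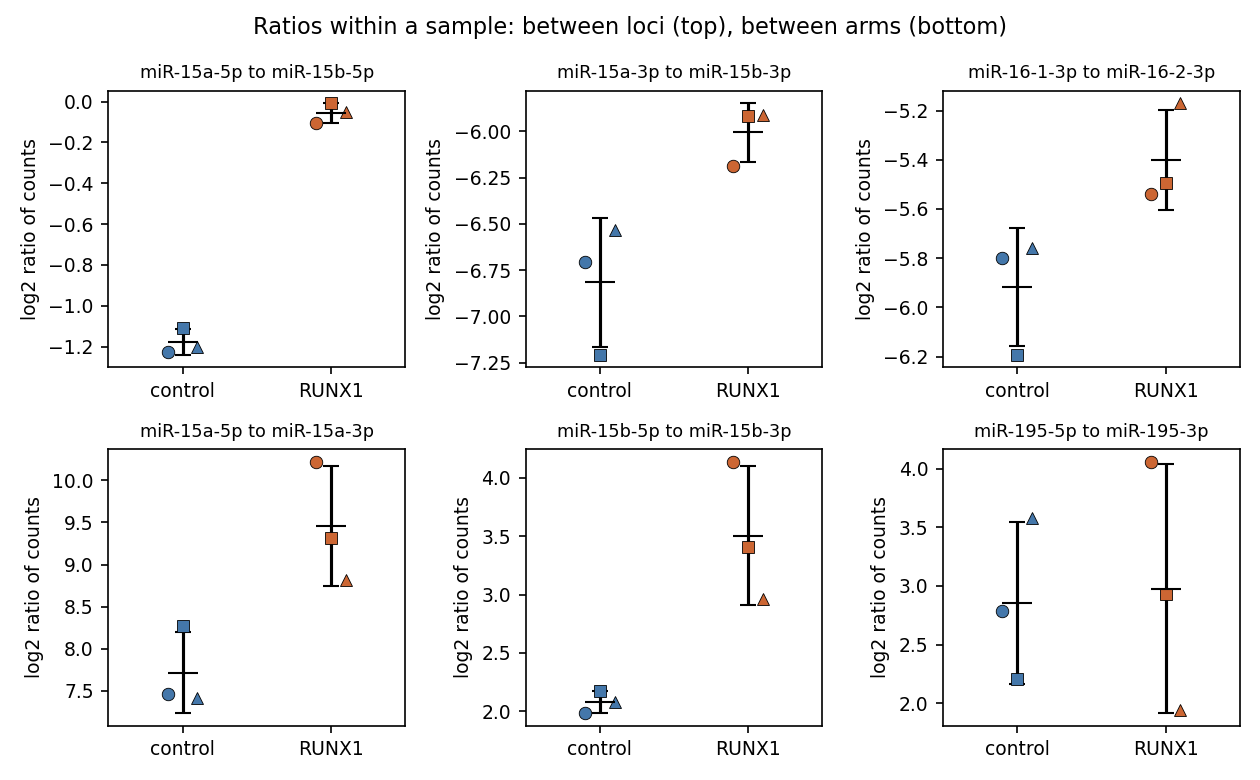
Log2 ratio of counts within each sample, between arms of paralogous loci (top row) and between the 5p and the 3p arm of 1 hairpin (bottom row), with points for samples, marker shapes for replicates and bars for mean and SD (each panel has its own axis, which does not start at 0). The ratio of miR-15a-5p to miR-15b-5p goes from -1.18 to -0.055 with little spread, while the miR-195 ratios overlap.

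**Figure D4:**
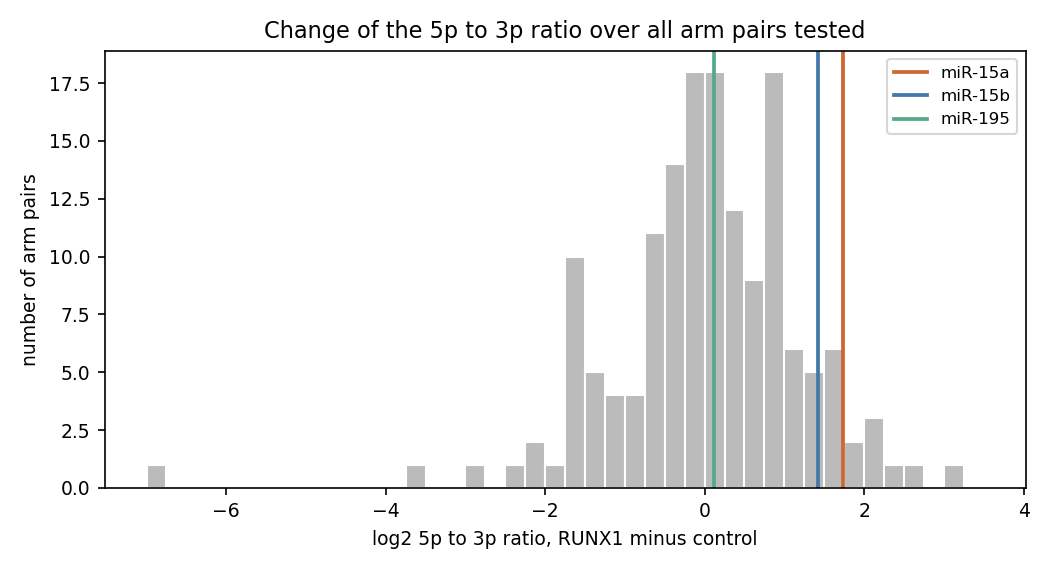
Histogram of the change of the log2 5p to 3p ratio (RUNX1 minus control) over the 155 arm pairs tested, with lines at miR-15a, miR-15b and miR-195. The lines at 1.74 and 1.42 stand in the upper part of the distribution, whose median is 0.037, and that of miR-195 at 0.12 near its centre.

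As a whole, the family held a lower share of the microRNA counts in each RUNX1 sample than in any control sample, at the smallest p the design allows. The 8 arms made up 0.355%, 0.337% and 0.329% of the microRNA counts with the empty vector and 0.227%, 0.199% and 0.182% with RUNX1 (exact permutation test, p = 0.1). The difference was -0.138 percentage points, -0.127 without RUNX1 replicate 3, and -0.0777 with miR-10a-5p left out of the denominator. A share also falls when another microRNA takes more of the library, so it is no measure of the amount per cell. With library size alone, the median log2 fold change of all microRNAs tested was -0.59, so a fall was not particular to the family. The sum also includes the doubtful count of miR-16-5p.

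Within the family, miR-15a-5p took 21.8% ± 1.14 of the counts with the empty vector and 42.3% ± 1.81 with RUNX1, and miR-15b-5p took 49.3% ± 1.06 and 43.9% ± 2.41 (n = 3 per condition, SD). The share of miR-15b-3p was 11.7% ± 0.649 and 4.03% ± 1.36, and that of miR-16-2-3p was 15.5% ± 1.54 and 8.41% ± 2.61. None of these 4 shares overlapped between the conditions (exact permutation test, p = 0.1 for each, the smallest possible). The other 4 arms held at most 1.23% each in any sample.

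**Figure D5:**
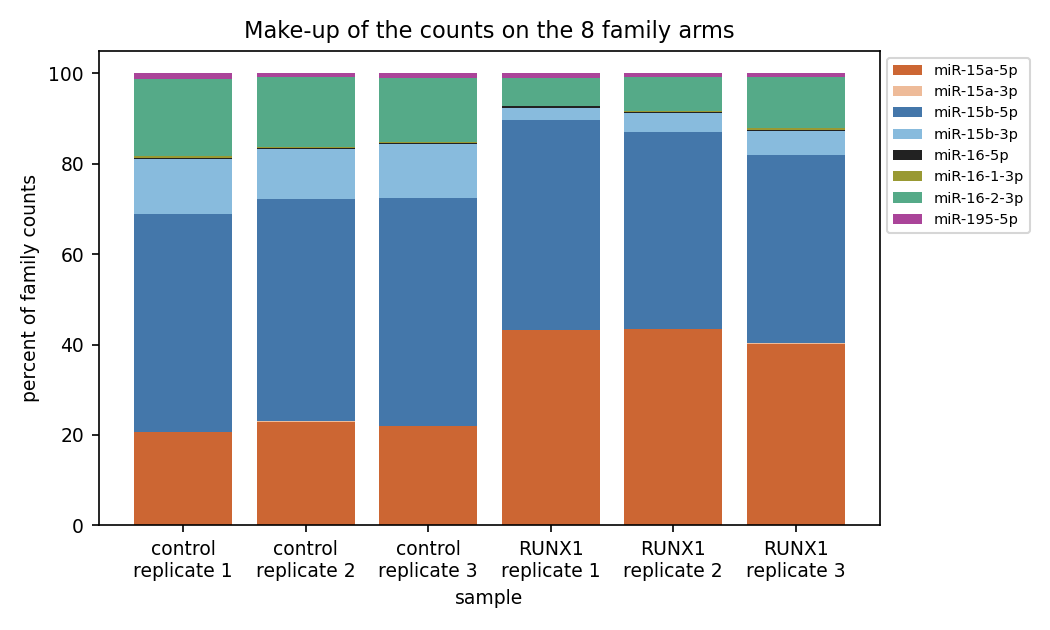
Stacked shares of the 8 arms in the counts of the family, in percent, for each of the 6 samples. miR-15a-5p (orange) averages 21.8% in control and 42.3% in RUNX1 samples, while miR-15b-3p (light blue) and miR-16-2-3p (green) take less in every RUNX1 sample than in any control sample.

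Other arms carried the same seed, from the loci of miR-424, miR-497 and miR-6838, and the 5p arm of miR-503 has the seed AGCAGCG. They are printed with the seed in capitals to show what they share with the 5p arms above.
hsa-miR-424-5p: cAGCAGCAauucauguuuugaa
hsa-miR-497-5p: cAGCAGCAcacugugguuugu
hsa-miR-6838-5p: aAGCAGCAguggcaagacuccu
hsa-miR-503-5p: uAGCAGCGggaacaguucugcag

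miR-424-5p had 48.8, 43.6 and 47.9 CPM with the empty vector and 78.5, 78.4 and 56.3 CPM with RUNX1, which did not overlap. Its log2 fold change was 0.61 (SE 0.16, adjusted p = 0.0108, edgeR), which was -0.10 with library size alone. miR-497-5p, from the same cluster as miR-195, had 0.57 (SE 0.21, adjusted p = 0.0446, edgeR), with overlapping samples, and it became -0.15 with library size alone. With TMM on the microRNAs alone they had 0.41 and 0.37, and neither was called. Without RUNX1 replicate 3 they had 0.84 and 0.83. The call of miR-497-5p was lost without control replicate 2 or 3 and without RUNX1 replicate 1 or 2. miR-503-5p had 0.47 (adjusted p = 0.159, edgeR) and was called, with 0.74, only without RUNX1 replicate 3. miR-6838-5p had at most 6 counts in a sample and was not tested. The 3p arms miR-195-3p, with -0.26, and miR-424-3p, with -0.32, did not pass the test, and miR-424-3p was called down-regulated with -0.54 without RUNX1 replicate 3 and with -0.999 with library size alone. miR-497-3p had at most 1 count in a sample. Of the 7 arms with the seed AGCAGCA, 6 were tested and 3 were called up-regulated, against 33.4% of all microRNAs tested, and miR-15a-5p alone of these 3 kept its call with TMM on the microRNAs.

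Beside miR-16-5p were set 8 microRNAs that are often taken as references in q-RT-PCR, of which 4 were called up-regulated, against 33.4% of all microRNAs tested. The log2 fold changes were 0.98 for miR-191-5p, 0.70 for miR-103a-3p, 0.62 for miR-425-5p and 0.62 for let-7a-5p (adjusted p = 0.00107, 0.00422, 0.00424 and 0.0331, edgeR with Benjamini-Hochberg adjustment). miR-191-5p, at 52001 ± 1504 CPM with the empty vector and 102524 ± 23999 CPM with RUNX1 (n = 3 per condition, SD), was the most abundant of them. With library size alone the samples of all 4 overlapped, and the RUNX1 mean was below the control mean for miR-103a-3p, miR-425-5p and let-7a-5p. miR-423-5p, miR-423-3p, miR-93-5p and miR-25-3p had values from -0.19 to 0.057 and were not called. With library size alone, however, each of them was lower in every RUNX1 sample than in any control sample. For miR-423-5p and miR-25-3p this also held for CPM after TMM scaling. miR-103a-3p and let-7a-5p are, like miR-16-5p, listed at several loci, and let-7a-5p had 207 counts in all.

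The microRNAs whose pattern was most like that of each arm were found by Pearson's r of log2 CPM over the 6 samples, among 587 microRNAs, as a description. All points share their libraries and scaling. The difference between the conditions was not removed, so arms with a clear change reach a high r by construction. The size of a change does not enter r, as miR-20a-3p, named below, had a log2 fold change of -0.54 and miR-15b-3p of -1.48. For miR-15a-5p they were miR-361-5p (r = 0.998), miR-574-3p (0.997) and miR-326 (0.997). The nearest to miR-15b-3p was miR-20a-3p (0.998), a 3p arm of the miR-17/92 cluster, and the nearest to miR-16-2-3p was miR-190b (0.995). For the arms that were not called, the nearest had a lower r, from 0.904 for miR-16-5p with miR-4772-3p to 0.985 for miR-15a-3p with miR-18a-5p. miR-15b-5p was nearest to miR-449c-5p (0.964).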

How the data were processed

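TruSeq Small RNA libraries were sequenced on a HiSeq2000, and the authors deposited counts of reads per annotated small RNA without normalization. The submitters' processing notes name CASAVA 1.8.2 and the build hg19. The study ran the OASIS platform with default settings to find altered small RNAs. Whether it also made the counts, the aligner and the treatment of reads matching several loci are not given in the sources used here. 5 summary entries per sample were all 0 and were left out. The depth per library was 1618248 to 15245007 counts.

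Everything after the counts was computed here. Groups and replicate numbers came from the labels, which call the samples biological triplicates. Low small RNAs were removed with filterByExpr (count 10, total 15), and the rest were TMM-normalized and tested with glmQLFit and glmQLFTest (edgeR 4.0.16, R 4.3.3), with Benjamini-Hochberg adjustment over all 947 tested and the study's thresholds. Standard errors (SE) were derived from the fold change and its F statistic. Log2 5p to 3p ratios, with 0.5 added to each count, were tested with limma 3.58.1 (eBayes with trend) over all arm pairs with a mean of at least 10 counts on each arm. Locus ratios and shares were compared by two-sided exact permutation tests, which cannot go below 0.1. On simulated data with a log2 change of 1.5, edgeR recovered 100% of 198 changed small RNAs among 938 tested and called 2.84% of the unchanged ones, and limma recovered 89.7% of 58 changed ratios among 158. Apart from 200 changed entries, the simulated conditions had the same profile and the same noise. The simulation therefore does not test the scaling between libraries of unlike make-up, or the larger noise among the RUNX1 samples.

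The members and lists were chosen with earlier results of these data known. Named were the 8 arms, other arms with the seed and their partners, 8 reference microRNAs, the 3 nearest patterns per arm and the most abundant microRNA. As RUNX1 replicates 1 and 2 have the same number in their library names, the sample titles were used. Alternatives were DESeq2 1.42.0, RLE factors, library size, TMM on microRNAs, other filters, thresholds and pseudocounts, limma without trend, other denominators, the replicate block and each replicate left out. Added after seeing the data were leaving out arms at 2 or more loci, leaving out pairs with such an arm, and a trend on the rarer arm. Sequences are from RefSeq (GRCh38.p14), whose coordinates are not those of hg19, and host genes from GENCODE 29.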

Additional observations from a re-analysis of the deposited data

How the results depend on the processing

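Of 371 alternative values, 310 were taken as unchanged. For single arms and arm ratios this meant the same direction and the same side of the threshold. For locus ratios and the family share it meant the same direction only. Some values could not change: the replicate block leaves a locus ratio the same by construction. Stricter thresholds, and for arm ratios limma without trend or with the block, can move a call but not the log2 change. A count of called arms or pairs was taken as unchanged when close to that of the main test, such as 3 against 2. With library size alone, 0 arms were called up-regulated and 7 down-regulated, and miR-424-5p, miR-497-5p and miR-503-5p turned to -0.10, -0.15 and -0.24. With an adjusted p under 0.05 and a log2 fold change of 1, 1 arm was down-regulated, miR-15b-3p, as the higher fold limit removes miR-16-2-3p. With at least 10 counts on each arm in every sample, 1 arm pair of the family was called, since miR-15a-3p is too rare to be tested. Values near 0 changed sign: miR-15b-5p had 0.048 with DESeq2, 0.048 with RLE factors and 0.064 without a count filter, and miR-16-5p had 0.057, 0.050 and 0.043. Leaving out each replicate, 1 arm stayed up-regulated, 2 to 3 were down-regulated (miR-15a-3p joined without control replicate 2), and 1 to 3 arm pairs were called. The log2 fold changes then ranged from -0.18 to 0.22 for miR-15b-5p, -0.29 to 0.17 for miR-16-5p, -0.43 to -0.062 for miR-16-1-3p, -0.39 to 0.16 for miR-195-5p and -0.60 to 0.087 for miR-195-3p. The log2 ratios ranged from -0.058 to 0.61 for miR-16-5p to miR-16-1-3p, -0.42 to 0.64 for the miR-195 arms and -0.19 to 0.15 for miR-15b-5p to miR-16-5p. The cause of these changes was not tested. Same-numbered control and RUNX1 samples had correlations of their deviations of -0.0207, -0.0723 and 0.0342, against -0.0311 to 0.0744 for the other pairs. No pairing by number was thus seen, but these values cannot decide whether same-numbered samples shared a round of work. With the replicate block, 1 arm was up-regulated, 2 were down-regulated and 2 arm pairs were called. Leaving out arms at 2 or more loci left 1 arm up-regulated and 2 down-regulated. miR-15a-3p, miR-16-1-3p and miR-6838-5p had at most 43 counts in a sample, which limits their precision.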
